A study of Mus musculus with 12 samples.

Results

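The proteasome genes described here are the 44 genes whose symbol is Psma, Psmb, Psmc, Psmd, Psme or Psmf with a number and that an array feature names alone, pseudogenes left out. They are 44 of the 30702 genes that the array's features name singly. By role they were 13 genes of the 20S core, 17 of the 19S regulatory particle, 3 chaperones of 19S assembly (Psmd5, Psmd9 and Psmd10), 3 immunoproteasome subunits (Psmb8, Psmb9 and Psmb10), 4 genes of other activators and of the inhibitor PI31 (Psme1, Psme3, Psme4 and Psmf1) and 2 tissue-restricted core subunits (Psma8 of germ cells and Psmb11 of the thymus). The other 2, Psmc3ip and Psme3ip1, encode no proteasome subunit and share only the prefix, so the label holds for 42 of the 44. Psmb5, the chymotrypsin-like core subunit, and Psme2 lie on features that name several genes and were not used here.

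The proteasome is the protease that removes proteins marked with ubiquitin. Its 20S core is a barrel of alpha and beta rings with the cutting sites inside, and the 19S particle on its ends binds ubiquitin chains, unfolds the substrate with a ring of ATPases and feeds it in. Other caps (Psme1 with Psme2, Psme3, Psme4) open the core without ubiquitin, and interferon exchanges its cutting subunits for Psmb8, Psmb9 and Psmb10. Maturing red cells dismantle most of their proteome, and ubiquitin with the proteasome is part of that remodelling.

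Erythroblasts came from the spleens of male mice 3 days after phenylhydrazine, which destroys red cells and drives emergency red cell formation in the spleen. Before that, the mice had eaten selenium-deficient or selenium-adequate food for 3 months, and all 12 arrays are from phenylhydrazine-treated animals. The groups were basophilic erythroblasts on the deficient diet, basophilic erythroblasts on the adequate diet, proerythroblasts (the preceding stage) on the deficient diet and proerythroblasts on the adequate diet, with 3 Affymetrix arrays each. Strain, age, and whether an array holds 1 mouse or a pool are not given in the labels used here, so p-values measure the spread between these arrays. Values are log2 levels as the authors deposited them, and a difference of 1 is a doubling or halving.

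Of 20128 genes bright enough to test, all 44 members among them, each was fitted with limma and its p-value adjusted by Benjamini-Hochberg over all 20128 genes. A gene is said to rise or fall where the adjusted p is under 0.05. The stages matched their labels by most markers: Kit, Myb and Cdk6 fell and Alas2, Slc4a1, Epb42, Tmod1 and Fech rose from the earlier to the later stage on both diets, while Gata2 did not pass on either without a block. One label disagrees: deficient basophilic replicate 3 is described as proerythroblasts, but titled and typed as basophilic. Its mean over the later erythroblast markers was 12.12, with 11.997 to 12.12 over the deficient basophilic arrays and 11.17 to 11.42 over the deficient proerythroblast arrays. Calls that rest on it are also given without it. The basophilic arrays numbered 2 stood apart on both diets: deficient basophilic replicate 2 was its group's lowest array for 33 of 44 members and adequate basophilic replicate 2 for 35. Deficient proerythroblast replicate 2 was lowest in its group for 36. Over all genes tested, these 3 arrays were the lowest of their group for 39.2%, 41.9% and 43.7%. The heat map of all members shows these columns.

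**Figure D1:**
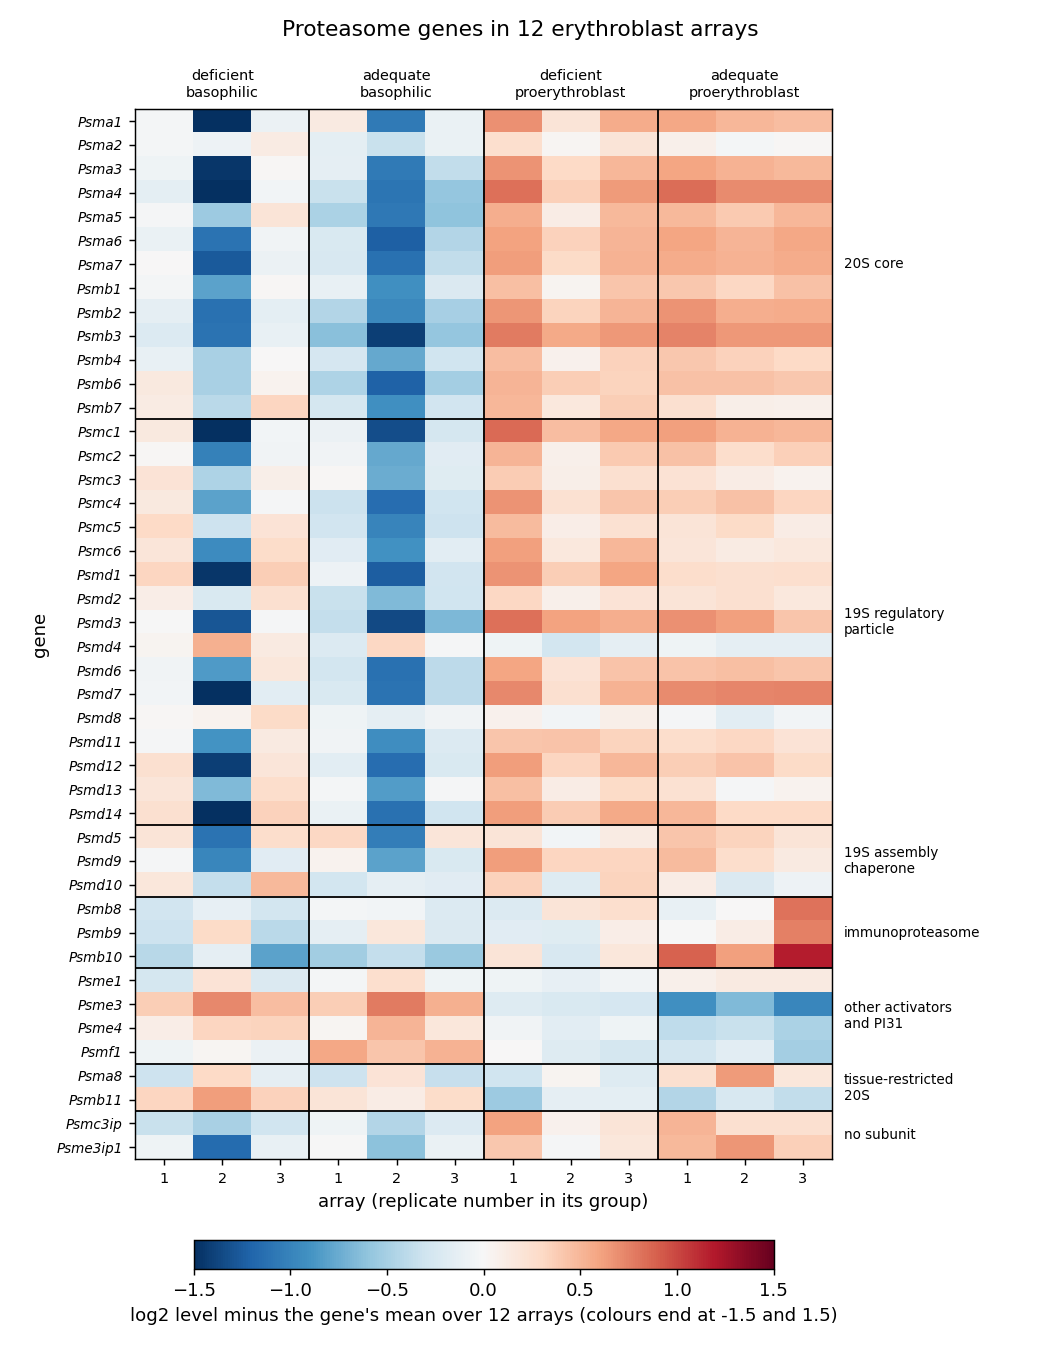
Log2 level of each of 44 proteasome genes minus the gene's mean over 12 arrays (colour, ending at -1.5 and 1.5), genes in rows by role and arrays in columns by group. Core and 19S rows are mostly bluer in the 6 basophilic arrays, deepest in those numbered 2, and Psme3, Psme4 and Psmb11 run the other way.

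With stage, more proteasome genes fell than rose on both diets. Estimates lay below 0 for 37 of the 44 on the deficient diet and for 39 on the adequate diet. Of the 44, 14 fell on the deficient diet, where 24.9% of all genes tested fell, and 2 rose, where 31.1% rose. The adequate diet had 21 falls, against 25.6% of all genes tested, and 4 rises, against 28.7%. The members' median log2 difference was -0.54 on the deficient and -0.70 on the adequate diet. Of the core genes, 11 of 13 fell on the adequate diet and 8 of 13 on the deficient diet. Of the 19S particle, 7 of 17 fell on the adequate and 4 of 17 on the deficient diet. The genes that rose were Psme3, Psme4, Psmf1 and Psmb11 on the adequate diet, and Psme3 and Psmb11 on the deficient diet.

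As shares, the falls were 31.8% of the members on the deficient and 47.7% on the adequate diet, and the rises 4.55% and 9.09%. The median of all genes tested was 0.08 and 0.12. Members are bright genes, so a second background was taken after the results were seen: the 2220 genes whose mean level lay between the members' quartiles, 8.54 and 10.21. Of these, 37.3% fell on the adequate diet, against 47.7% of the members, with medians of -0.39 and -0.70. But 41.6% of them fell on the deficient diet, with a median of -0.54, so there the members' 31.8% lay below the share of equally bright genes, and both medians were -0.54. That order held in 16 of 22 alternative fits and turned in 6. It turned without deficient basophilic replicate 3, to 54.5% of the members against 49.8% of equally bright genes. On the adequate diet the members' share was the higher one in all 22. No member count was tested against either background.

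Diet arrays of one number within a stage deviated together, so each stage was also fitted with its replicate number as a block. The block suits the diet comparisons, whose arrays share a number within a stage. It takes the spread between numbers out of the error of a stage difference, so blocked stage p-values can be too small. With this block 30 members fell on the deficient diet (33.6% of all genes) and 34 on the adequate diet (32.6% of all genes), and 4 rose on each (38.9% and 39.9% of all genes). The falls were then 68.2% of the members against 61.0% of equally bright genes on the deficient diet, and 77.3% against 51.8% on the adequate diet. They took in 12 of 13 core genes on each diet, all but Psma2, and 13 of 17 genes of the 19S particle on the deficient and 15 of 17 on the adequate diet. Every stage call without the block was among those with it. The calls below are without the block unless it is named.

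Array background moved with stage. The median level of the features that measure background by GC content was 3.73 to 4.70 in deficient basophilic and 3.63 to 4.19 in adequate basophilic arrays, against 3.31 to 3.47 in deficient and 3.36 to 3.53 in adequate proerythroblast arrays. The 1324 control features marked pos had a median stage difference of -0.64 on the adequate diet (members -0.70) and -0.63 on the deficient diet (members -0.54). The part of this shift in the members' differences was not tested. In sorted bulk RNA, fewer cells that express a gene and less RNA per cell cannot be told apart.

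**Figure D2:**
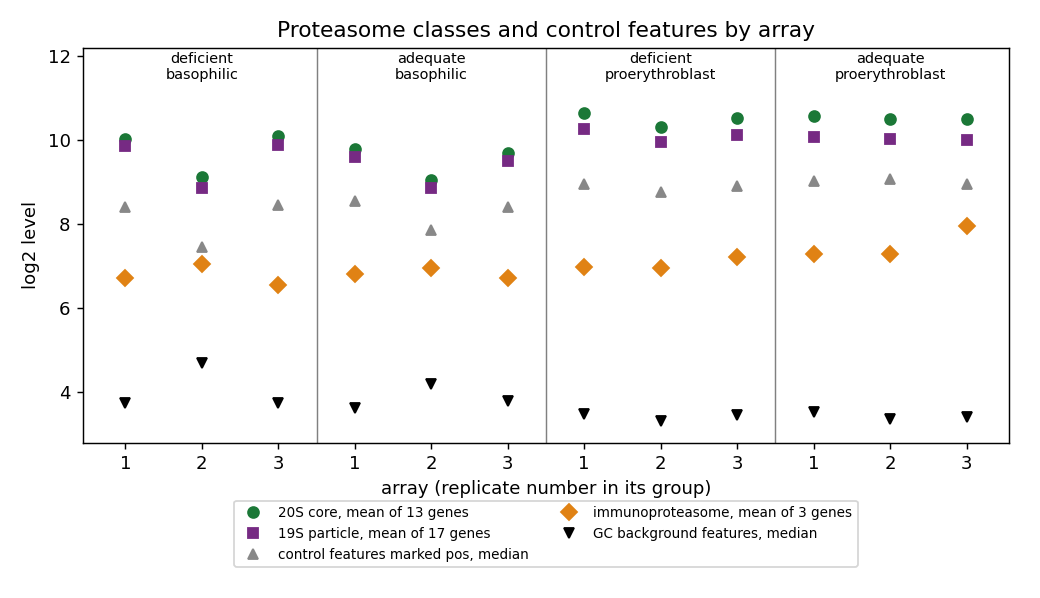
Log2 level in each of 12 arrays: mean of 13 core genes, of 17 19S genes and of 3 immunoproteasome genes, with the medians of the control features marked pos and of the GC background features. Core and 19S means and the pos controls are lower, and the GC background higher, in both basophilic arrays numbered 2 than in the other arrays of their groups.

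The alpha subunits form the gated outer rings of the core, and all 7 had lower estimates in basophilic cells on both diets. On each diet 5 of them fell. Psma4 had 7.72, 6.0 and 7.82 in deficient basophilic arrays, against 8.69, 8.22 and 8.51 in deficient proerythroblast arrays. It had 7.53, 6.77 and 7.29 in adequate basophilic arrays, against 8.70, 8.57 and 8.57 in adequate proerythroblast arrays. No basophilic array of Psma4 reached any proerythroblast array. The log2 differences were -1.29 (SE 0.39, adjusted p = 0.0199) on the deficient diet and -1.42 (SE 0.39, adjusted p = 0.0138) on the adequate diet, or 0.408-fold and 0.375-fold. Without deficient basophilic replicate 2 the deficient-diet difference was -0.70, and its call was lost without deficient proerythroblast replicate 1 or 3 and under quantile normalization. The adequate-diet call was lost without adequate basophilic replicate 2 (adjusted p = 0.0594) and under quantile normalization.

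Psma3, Psma6 and Psma7 fell on both diets, by 0.91 to 0.99 on the deficient diet and by 1.06 to 1.20 on the adequate diet. Psma5 fell on the adequate diet, with a difference of -1.18 (adjusted p = 0.00109), and had -0.50 (adjusted p = 0.0582) on the deficient diet. Psma1 passed on the deficient diet (-1.13, adjusted p = 0.0417) and had -0.86 on the adequate diet (adjusted p = 0.102). With the block it passed on both (adjusted p = 0.000458 and 0.00147). The stage effect of Psma1 was not shown to differ between the diets (interaction -0.27, adjusted p = 0.999). Its deficient basophilic values were 10.11, 8.32 and 10.05, so replicate 2 alone lay far below the rest. Psma2 did not pass on either diet, with differences of -0.15 and -0.21.

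The beta rings carry the cutting sites. All 6 beta genes measured fell on the adequate diet, and 3 of them, Psmb2, Psmb3 and Psmb4, fell on the deficient diet too. Psmb3, a structural beta subunit, had 9.37, 8.47 and 9.46 in deficient basophilic arrays, against 10.35, 10.14 and 10.22 in deficient proerythroblast arrays. In adequate basophilic arrays it had 8.94, 8.16 and 8.99, against 10.32, 10.22 and 10.22 in adequate proerythroblast arrays. The stages did not overlap on either diet. Psmb3 fell by 1.14 (SE 0.27, adjusted p = 0.0089) on the deficient diet and by 1.56 (SE 0.27, adjusted p = 0.000822) on the adequate diet, and kept its call in every one of 12 fits that left out 1 array.

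Psmb6, the caspase-like cutting subunit, had 10.06, 9.43 and 9.97 in deficient basophilic arrays, against 10.42, 10.28 and 10.25 in deficient proerythroblast arrays, which are close but do not overlap. It had 9.45, 8.70 and 9.40 in adequate basophilic arrays, against 10.35, 10.35 and 10.32 in adequate proerythroblast arrays. The differences were -0.50 (adjusted p = 0.0603) on the deficient diet and -1.16 (adjusted p = 0.00124) on the adequate diet. Psmb7, the trypsin-like subunit, had -0.33 (adjusted p = 0.197) and fell by 0.62 (adjusted p = 0.0313). Psmb2 fell by 0.97 and 1.23 on the deficient and adequate diet, and Psmb4 by 0.49 and 0.79. Psmb1 fell by 0.80 on the adequate diet, and had -0.58 on the deficient diet (adjusted p = 0.0661, and 0.0016 with the block). Its stage effect was not shown to differ between the diets (interaction 0.23, adjusted p = 0.999).

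In the 19S base, 6 ATPases unfold the substrate. Psmc2 fell on both diets (-0.68 on each), Psmc4 and Psmc5 fell on the adequate diet (-0.97 and -0.72), and Psmc1 fell on the deficient diet. Psmc1 had 10.35, 8.27 and 10.16 in deficient basophilic arrays, against 11.05, 10.67 and 10.79 in deficient proerythroblast arrays, a difference of -1.24 (SE 0.47, adjusted p = 0.0406). Without deficient basophilic replicate 2 it was -0.58, and the Psmc1 call held in 4 of 12 fits without 1 array. On the adequate diet its difference was -1.11 (adjusted p = 0.0615), and replicate 2 was the lowest basophilic array on both diets. Psmc3 and Psmc6 passed on neither diet in the fit of all 12 arrays without the block, and on both with it.

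Of the 11 non-ATPase subunits, Psmd3 and Psmd7, structural subunits of the lid, fell on both diets. Psmd3 had 9.26, 7.99 and 9.25 in deficient basophilic arrays, against 10.10, 9.87 and 9.81 in deficient proerythroblast arrays. It had 8.91, 7.92 and 8.60 in adequate basophilic arrays, against 9.96, 9.89 and 9.69 in adequate proerythroblast arrays. Each basophilic array lay below each proerythroblast array of its diet. Psmd3 fell by 1.09 on the deficient diet (adjusted p = 0.0186) and by 1.37 on the adequate diet (adjusted p = 0.00639). The deficient-diet value of Psmd3 was -0.67 without deficient basophilic replicate 2. Psmd7 had -1.14 (adjusted p = 0.0266) on the deficient diet and -1.3 (adjusted p = 0.017) on the adequate diet. Without that array the deficient-diet value of Psmd7 was -0.60, and its call held in 9 of 12 fits without 1 array.

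Psmd2, the large scaffold of the base, and Psmd6 fell on the adequate diet alone (-0.63 and -1.03), with -0.16 and -0.65 on the deficient diet, and the diets' difference is tested further on. Psmd14, the deubiquitinase of the lid, had -0.91 on the deficient and -0.86 on the adequate diet. With all arrays it passed only with the block (adjusted p = 0.0036 and 0.00485). Psmd4, a ubiquitin receptor, ran the other way, with 9.41, 9.91 and 9.51 in deficient basophilic arrays, against 9.31, 9.10 and 9.24 in deficient proerythroblast arrays. Its difference of 0.39 did not pass (adjusted p = 0.0582, and 0.00591 with the block), nor did the 0.14 on the adequate diet. Psmd8 showed 0.08 and -0.01. Of the 3 assembly chaperones, Psmd9 fell on the deficient diet (-0.82, adjusted p = 0.024).

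**Figure D3:**
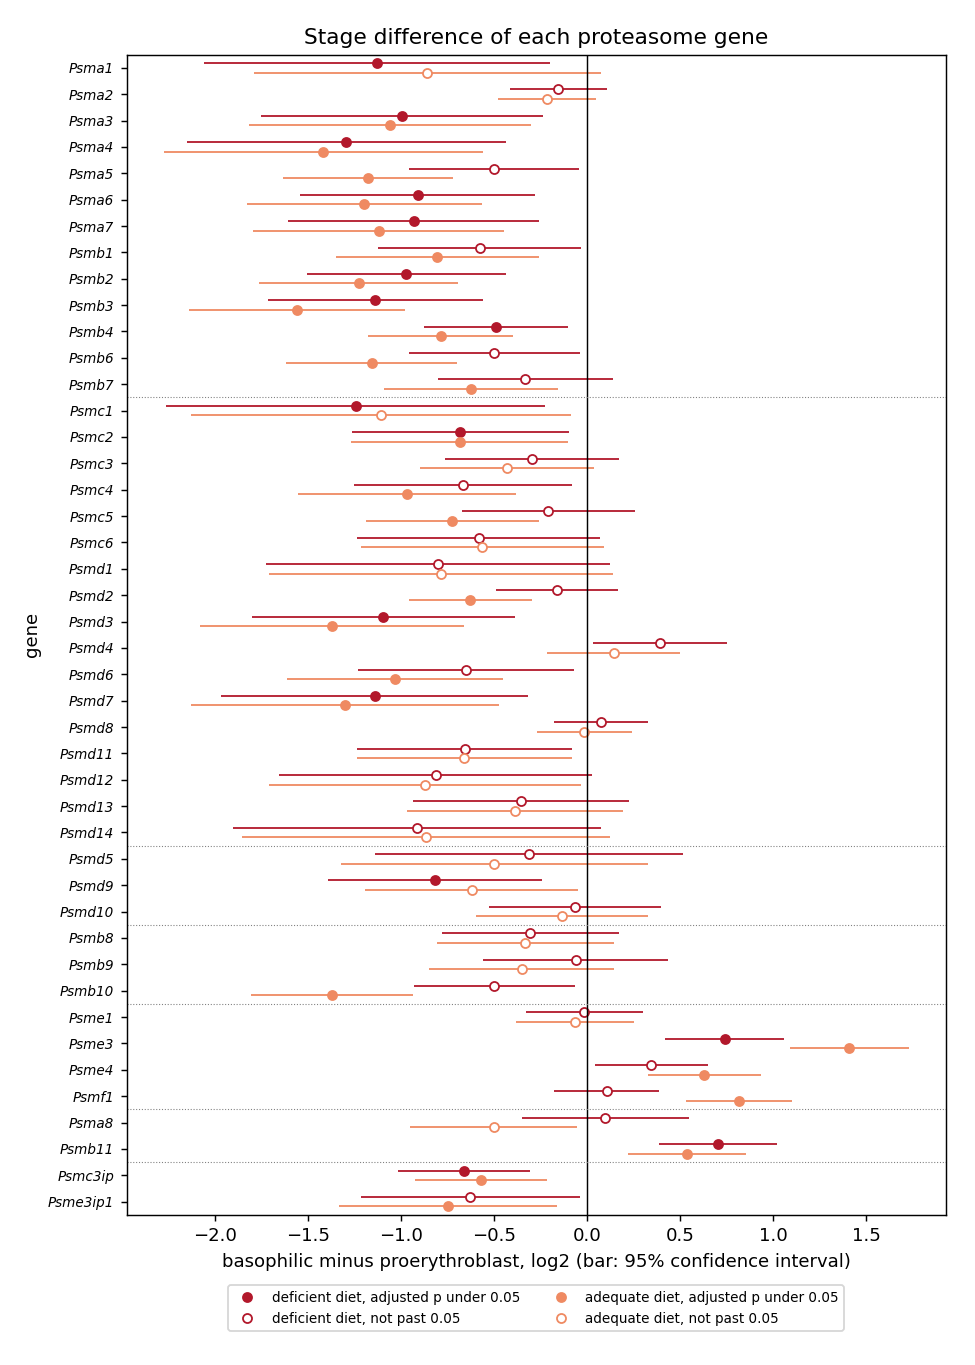
Basophilic minus proerythroblast log2 difference of 44 genes with its 95% confidence interval, deficient diet above adequate diet for each gene and filled points past an adjusted p of 0.05. Most points lie left of 0, and Psme3, Psmb11, Psme4 and Psmf1 are among those to its right on both diets.

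Of the 4 genes of alternative caps and PI31, 3 rose and none fell on the adequate diet, and 1 rose and none fell on the deficient diet. Psme3 encodes the nuclear cap that opens the core without ATP or ubiquitin. It had 12.16, 12.51 and 12.26 in deficient basophilic arrays, against 11.60, 11.57 and 11.54 in deficient proerythroblast arrays. It had 12.16, 12.57 and 12.33 in adequate basophilic arrays, against 10.88, 11.13 and 10.82 in adequate proerythroblast arrays. The stages were apart on both diets. Psme3 rose by 0.74 (SE 0.15, adjusted p = 0.00423) on the deficient diet and by 1.41 (SE 0.15, adjusted p = 2.45e-05) on the adequate diet, which is 1.67-fold and 2.66-fold, and both calls held in all 12 fits without 1 array.

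Psmf1 encodes PI31, a proteasome-binding protein first known as an inhibitor of the core. It had 8.14, 8.23 and 8.11 in deficient basophilic arrays, against 8.21, 8.01 and 7.94 in deficient proerythroblast arrays. It had 8.78, 8.62 and 8.72 in adequate basophilic arrays, against 7.93, 8.05 and 7.69 in adequate proerythroblast arrays. The groups overlapped on the deficient diet only. Psmf1 rose by 0.82 (SE 0.13, adjusted p = 0.000514) on the adequate diet, and had 0.11 (adjusted p = 0.486) on the deficient diet.

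Psme4, the large single-chain cap known from histone breakdown in germ cells and DNA repair, rose by 0.63 (adjusted p = 0.00436) on the adequate diet and had 0.35 (adjusted p = 0.051, and 0.0186 with the block) on the deficient diet. Psme1, a subunit of the interferon-induced cap, showed -0.01 and -0.06. Psmb11 rose by 0.70 and 0.54 on the deficient and adequate diet, but all its arrays lay between 4.85 and 6.02, around the 5.3 that served as the limit for testing, and the adequate-diet call was lost under 2 other scalings. The germ cell subunit Psma8 was as dim and passed at neither stage comparison. The 2 genes that are no subunits also fell on the adequate diet, Psmc3ip by 0.57 and Psme3ip1 by 0.75.

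The promoters of Psmb3, Psme3 and Psmf1 are shown because of their stage effects. Psmb3 fell and Psme3 rose on both diets, and Psmf1 rose on the adequate diet only. Each window runs from 250 bases before to 50 after the gene's start, from RefSeq on GRCm38.p6, 5′ to 3′ on the gene's strand. The windows are chr11:97703184-97703483 on the plus strand, chr11:101315963-101316262 on the plus strand and chr2:151741261-151741560 on the minus strand. Capitals mark CCAAT boxes, on either strand, in the first 2 and, in the third, the motif AGATAA that GATA factors bind.
Psmb3: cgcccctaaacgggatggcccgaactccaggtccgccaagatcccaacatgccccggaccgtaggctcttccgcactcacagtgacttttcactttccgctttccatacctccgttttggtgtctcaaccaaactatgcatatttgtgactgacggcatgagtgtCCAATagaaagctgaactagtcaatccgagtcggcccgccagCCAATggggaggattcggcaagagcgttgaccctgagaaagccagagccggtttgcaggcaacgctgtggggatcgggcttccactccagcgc
Psme3: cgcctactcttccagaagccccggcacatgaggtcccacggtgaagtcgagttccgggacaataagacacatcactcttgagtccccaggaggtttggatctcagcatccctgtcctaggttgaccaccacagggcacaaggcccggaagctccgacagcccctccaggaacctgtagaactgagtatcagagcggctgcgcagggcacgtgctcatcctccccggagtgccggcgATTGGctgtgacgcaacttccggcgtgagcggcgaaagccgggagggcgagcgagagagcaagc
Psmf1: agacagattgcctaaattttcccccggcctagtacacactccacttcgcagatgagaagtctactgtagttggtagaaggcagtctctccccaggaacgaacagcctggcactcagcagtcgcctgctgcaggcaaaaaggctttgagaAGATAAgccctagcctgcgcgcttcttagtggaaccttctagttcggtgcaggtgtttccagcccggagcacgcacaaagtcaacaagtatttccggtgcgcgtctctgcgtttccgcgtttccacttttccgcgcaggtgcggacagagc
Psmb3 held CCAAT at -85 and -43 from its start, Psme3 held the box on the other strand at -14, and Psmf1 held AGATAA at -101. Of the 44 members, 37 had a promoter in the table, with 40 windows. On either strand, CCAAT was in 40.0% of member windows, against 37.4% of 32851 windows of all genes. TGACNNNGC, the core of the antioxidant response element that NRF1 and NRF2 bind, was in 12.5% of member windows, against 12.4% of all. AGATAA was in 7.5%, against 11.2% of all. The 3 motifs and the 3 promoters were chosen after the results were seen, and a match is a run of letters, not a measured site.

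The immunoproteasome subunits differed among themselves. Psmb10, which takes the place of Psmb7, had 7.30, 7.58 and 6.91 in deficient basophilic arrays, against 7.91, 7.48 and 7.89 in deficient proerythroblast arrays. It had 7.19, 7.36 and 7.16 in adequate basophilic arrays, against 8.60, 8.33 and 8.89 in adequate proerythroblast arrays, so the adequate proerythroblasts stood above all other arrays. Psmb10 fell by 1.37 (SE 0.20, adjusted p = 0.000267) with stage on the adequate diet and had -0.50 (adjusted p = 0.0507, and 0.00574 with the block) on the deficient diet.

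Psmb8, which takes the place of Psmb5, had stage differences of -0.30 and -0.33, and Psmb9, which takes the place of Psmb6, of -0.06 and -0.35, on the deficient and adequate diet. None of these 4 passed, and their groups overlapped; with the block Psmb9 passed on the adequate diet (adjusted p = 0.0318). Adequate proerythroblast replicate 3 was the highest array for both, at 7.66 for Psmb8 and 7.32 for Psmb9. That array also had the highest mean of the macrophage markers (6.98), the neutrophil markers (8.57), the B cell markers (8.36) and the T and NK cell markers (6.56) of all 12. The part of those cells in the immunoproteasome values was not tested.

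**Figure D4:**
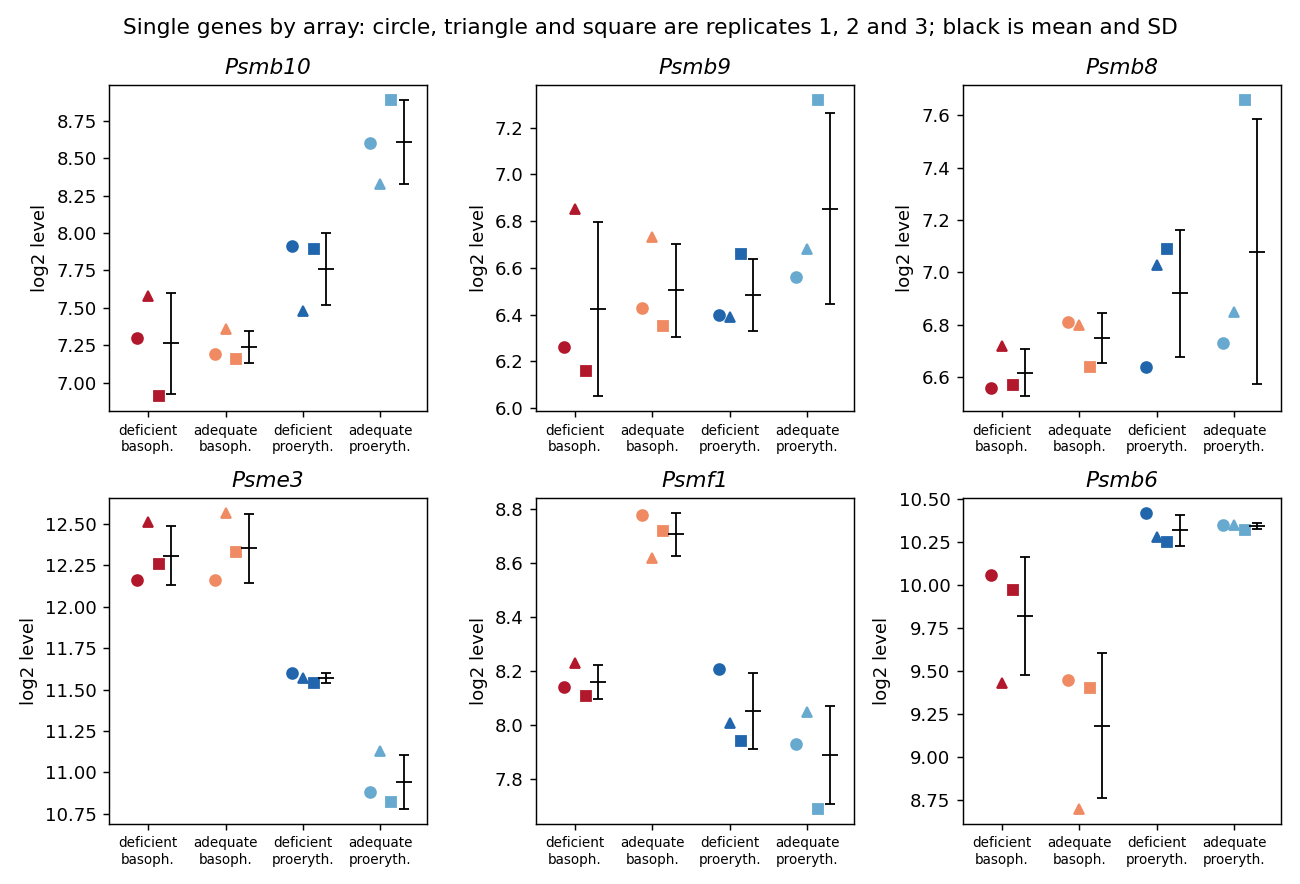
Log2 level of 6 proteasome genes in every array by group, with mean and SD (n = 3) in black and a scale of its own in each panel. Psmb10 stands highest in adequate proerythroblasts (8.33 to 8.89), Psme3 lowest there (10.82 to 11.13), and Psmf1 highest in adequate basophilic cells (8.62 to 8.78).

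Calls on the stage effect were shared in part. Of the genes that fell, 11 did so on both diets, which is 78.6% of the 14 on the deficient diet and 52.4% of the 21 on the adequate diet. They were Psma3, Psma4, Psma6, Psma7, Psmb2, Psmb3, Psmb4, Psmc2, Psmc3ip, Psmd3 and Psmd7. The number of falls depended on single arrays. Leaving out 1 array at a time gave 3 to 24 falls on the deficient diet and 11 to 31 on the adequate diet, and 3 of the 14 and 10 of the 21 falls held in all 12 such fits. Without deficient basophilic replicate 2, 11 of the 14 deficient-diet differences shrank by over 1.5 times and 5 of the 14 calls held. Without deficient proerythroblast replicate 1 or 3, 3 and 4 of the 14 held. Without adequate basophilic replicate 2, 10 of the 21 adequate-diet calls held, and 1 difference, that of Psmb7, shrank by over 1.5 times, to -0.41.

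Without deficient basophilic replicate 3, 24 members fell on the deficient diet, where 27.5% of all genes fell, and all 14 falls and both rises named above were among the calls. Without both basophilic arrays numbered 2, 20 members fell on the deficient diet (26.6% of all genes) and 30 on the adequate diet (29.3% of all genes), but the medians shrank to -0.28 and -0.50. By arrays alone, all 3 basophilic arrays lay below all 3 proerythroblast arrays for 22 members on the deficient diet (29.6% of all genes) and for 31 on the adequate diet (32.6% of all genes). All 13 core genes were among the 31.

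Few proteasome genes differed between the diets in proerythroblasts. Psme3 rose, as did 1.27% of all genes, and Psmb10 fell, as did 2.76% of all genes. Psme3 had 11.60, 11.57 and 11.54 in deficient and 10.88, 11.13 and 10.82 in adequate proerythroblast arrays, a difference of 0.63 (SE 0.15, 1.54-fold, adjusted p = 0.0339). Psmb10 had 7.91, 7.48 and 7.89 in deficient and 8.60, 8.33 and 8.89 in adequate proerythroblast arrays, a difference of -0.85 (SE 0.20, 0.556-fold, adjusted p = 0.0349). Neither gene's diets overlapped.

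Both calls were near the threshold, and both were lost under quantile normalization (adjusted p = 0.0694 for Psme3 and 0.117 for Psmb10). Over the fits without 1 array the adjusted p ran from 0.00943 to 0.149 for Psme3, which passed in 5 of 12, and from 0.0114 to 0.154 for Psmb10, which passed in 3 of 12. Without adequate proerythroblast replicate 3 the Psmb10 difference was -0.71 (adjusted p = 0.126). With the replicate number as a block within each stage, adjusted p was 0.00642 for Psme3 and 0.00339 for Psmb10, and Psma8 passed as well (-0.50, adjusted p = 0.0162).

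No core or 19S gene passed between the diets in proerythroblasts. The core median was -0.06, with 11 of 13 estimates below 0, and the 19S median was 0.09, with 13 of 17 above 0. Arrays of the diets were apart for 8 of 44 members, against 31.1% of all genes. Core estimates ran from -0.14 (Psma4) to 0.21 (Psmb7) and those of the 19S particle from -0.23 (Psmd7) to 0.29 (Psmd1). Their 95% confidence intervals reached down to -1.06 and up to 1.22. No core gene's diets were apart, and of the 19S particle Psmd1 and Psmd11 were higher in every deficient array. Psmb8 and Psmb9 had -0.16 (adjusted p = 0.98) and -0.37 (adjusted p = 0.593).

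Maturation markers moved with diet in the same arrays. In deficient against adequate proerythroblasts Kit, Myb and Cdk6 fell (log2 differences of -2.18, -2.06 and -1.36), and 5 of 6 later markers rose, among them Alas2 (1.67) and Tmod1 (1.79). The mean over the later markers was 11.17 to 11.42 in deficient and 9.99 to 10.25 in adequate proerythroblast arrays. With stage on the adequate diet Psme3 rose and Psmb10 fell, the same directions as with diet here, and the comparisons share the adequate proerythroblast arrays. How far the diet differences of Psme3 and Psmb10 go with the maturity of the sorted cells was not tested.

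In basophilic erythroblasts no member passed between the diets with limma, where 0.0199% of all genes did. The median difference of the members was 0.16, against 0.04 over all genes tested. Arrays of the diets were apart for 5 of 44 members, against 8.04% of all genes. With the replicate number as a block within each stage 3 members rose, with 1.45% of all genes passing in either direction: Psmb6 (0.64, adjusted p = 0.0248), Psma5 (0.59, adjusted p = 0.0467) and Psmc5 (0.59, adjusted p = 0.0481). Without both basophilic arrays numbered 2, 4 passed, with 2.09% of all genes: Psmb6, Psmb3 and Psmd2 higher and Psmf1 lower. Psmf1 had 8.14, 8.23 and 8.11 in deficient and 8.78, 8.62 and 8.72 in adequate basophilic arrays, a difference of -0.55 (SE 0.13, 95% confidence interval -0.83 to -0.26, adjusted p = 0.253 with all arrays and 0.0462 without the arrays numbered 2). These groups did not overlap. No member passed in any fit without 1 array, but the median of the members ran from 0.00 without adequate basophilic replicate 2 to 0.46 without deficient basophilic replicate 2, and was 0.02 without deficient basophilic replicate 3. Genes of the same brightness had a median of -0.15 with all arrays, and of -0.29, 0.11 and -0.27 in these 3 fits.

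Whether the diet difference itself changed with stage was tested as an interaction, the diet difference in basophilic cells minus that in proerythroblasts. No member passed with limma, where 0.303% of all genes did. Estimates were 0.87 for Psmb10 (95% confidence interval 0.26 to 1.49, adjusted p = 0.281), -0.71 for Psmf1 (-1.11 to -0.31, adjusted p = 0.15) and -0.67 for Psme3 (-1.12 to -0.22, adjusted p = 0.257). With the block within each stage 3 members passed, with 2.93% of all genes: Psmb10 (adjusted p = 0.0381), Psmb6 (adjusted p = 0.0443) and Psme3 (adjusted p = 0.0485). In the fit of all 12 arrays without the block Psmb10 and Psmb6 passed with stage on the adequate diet only. The interaction of Psmb10 passed only with the block. For Psmd2 (interaction 0.47, adjusted p = 0.544, and 0.121 with the block), Psma5 (0.68, adjusted p = 0.504, and 0.0639) and Psmd6 (0.38, adjusted p = 0.999, and 0.271) the stage effect was not shown to differ between the diets in either fit. The median interaction of the members was 0.13, and ran from -0.02 without adequate basophilic replicate 2 to 0.48 without deficient basophilic replicate 2. Without both basophilic arrays numbered 2, and with no block, the interaction passed for Psmb6 (0.61, adjusted p = 0.0233), Psme3 (-0.66, adjusted p = 0.0454) and Psmf1 (-0.79, adjusted p = 0.0395). Psmb10 did not pass there (0.78, adjusted p = 0.152). The share of all genes that passed the interaction is not given for that fit, so these calls have no background beside them. In that fit Psmb6 and Psmb10 also fell with stage on the deficient diet (adjusted p = 0.00957 and 0.0162).

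Genes around the proteasome were listed by role. Their counts with stage stand beside all genes tested, of which 24.9% fell and 31.1% rose on the deficient diet and 25.6% fell and 28.7% rose on the adequate diet, and beside the 41.6% and 37.3% of genes as bright as the proteasome genes that fell. Of the core assembly chaperones, Psmg1, Psmg2, Psmg3, Psmg4 and Pomp, all 5 measured fell with stage on the adequate diet and 4 of 5 on the deficient diet. Psmg1 had -2.11 on the deficient diet (adjusted p = 0.000293) and -3.04 on the adequate diet (adjusted p = 5.58e-06), and Psmg4 had -1.68 and -2.43. Psmg3 had -0.14 on the deficient diet (adjusted p = 0.34). Psmg1 also fell with diet in proerythroblasts, by 1.22 (adjusted p = 0.0178). With the block within stage, where 7.05% of all genes fell with diet in proerythroblasts and 4.04% rose, 4 of the 5 fell: Psmg1 (adjusted p = 0.00347), Psmg2 (0.0216), Psmg3 (0.0247) and Psmg4 (0.0448).

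Of 13 tested proteasome-associated genes, which bind the particle, shuttle ubiquitinated substrates or trim their chains, 7 fell and none rose on the deficient diet, and 6 fell and 1 rose on the adequate diet. With the block 10 fell and 1 rose on the deficient diet, and 9 fell and 2 rose on the adequate diet. Of all genes 33.6% fell and 38.9% rose with the block on the deficient diet, and 32.6% fell and 39.9% rose on the adequate diet. Rad23b, a shuttle factor, fell on both diets (-1.42 and -1.66), and Zfand5, a proteasome-binding zinc finger protein, rose by 1.03 on the adequate diet. Among 8 regulators of proteasome transcription, the small Maf genes Mafk, Mafg and Maff rose on both diets. Mafk rose by 0.92 (adjusted p = 0.000946) and 1.21 (adjusted p = 4.17e-05), and Mafg by 0.87 and 1.33. Nfe2l1, whose product NRF1 drives proteasome genes when proteasome activity falls short, had -0.08 and 0.08 and did not pass. Nfe2l2, which encodes NRF2, fell by 0.56 on the adequate diet (adjusted p = 0.0298) and had -0.07 on the deficient diet. Between diets no gene of either list passed in the fit of all arrays without the block. With the block Zfand5, Zfand2a and Bach1 rose in proerythroblasts and Bach1 rose in basophilic cells. Without both basophilic arrays numbered 2, and with no block, 4 proteasome-associated genes rose and 1 fell in proerythroblasts. In that fit 2 of the regulators rose and 1 fell in proerythroblasts, and 1 rose in basophilic cells. Of genes as bright as the members, 10% fell with diet in proerythroblasts there, against 1.22% with all arrays. In basophilic cells 2.09% of all genes passed there in either direction. The share of all genes that rose in proerythroblasts is not given for that fit.

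Of the ubiquitin and E1 list only Uba6, a ubiquitin-activating enzyme, was tested, and it fell with stage on both diets (-0.98 and -1.75). In the list of the p97 unfoldase and its cofactors, 1 of 8 fell on each diet, the cofactor gene Nsfl1c (-1.03 and -1.61), and with the block 4 fell on the deficient and 2 on the adequate diet. In the fit of all arrays, genes of these lists passed between diets only with the block. With it Uba6 fell and Nploc4 and Ufd1 rose in proerythroblasts, and Ufd1 rose in basophilic cells. The Uba6 interaction also passed with the block. Without both basophilic arrays numbered 2, and with no block, Uba6 fell in proerythroblasts and its interaction passed. In that fit 2 genes of the p97 list rose in proerythroblasts, 2 rose in basophilic cells, and the interaction passed for 1. The share of all genes that rose in proerythroblasts or passed the interaction is not given for that fit. Interferon and antigen processing genes, were tested because interferon induces the immunoproteasome. Of 15 tested, 6 rose and 4 fell with stage on the deficient diet, beside 31.1% and 24.9% of all genes, and 6 rose and 5 fell on the adequate diet, beside 28.7% and 25.6%. Isg15 rose by 2.27 and 3.63 and Ifit1 by 1.77 and 2.14, while Erap1, which trims peptides for class I molecules, fell on both (-1.69 and -2.02), as did H2-K1 (-0.65 and -0.68). In proerythroblasts Bst2 fell with diet, by 1.20 (adjusted p = 0.0143). Erap1 had -0.69 (adjusted p = 0.0506) and passed with the block (adjusted p = 0.00339).

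Markers of other cells moved with stage too. Of 10 neutrophil markers, 7 fell on the deficient diet, and on the adequate diet 8 fell and 1 rose. Of all genes tested, 24.9% fell and 31.1% rose on the deficient diet, and 25.6% fell and 28.7% rose on the adequate diet. The mean level of the neutrophil markers was 6.53 to 6.84 in deficient and 6.10 to 6.56 in adequate basophilic arrays. It was 7.46 to 8.31 in deficient and 7.12 to 8.57 in adequate proerythroblast arrays. Of 10 macrophage markers, 2 rose on each diet, and none of 5 B cell or 6 T and NK cell markers passed. With the block 5 macrophage markers rose on the deficient and 6 on the adequate diet, beside 38.9% and 39.9% of all genes. With the block Ms4a1 of the B cell list fell on both diets and Cd79a on the deficient diet. Their part in the stage differences of Psmb10 and the other members was not tested.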

How the data were processed

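The members and gene lists were chosen with earlier results of these data known. The authors deposited log2 values per array feature, made with Affymetrix Expression Console per the submitters' processing notes; version, normalization, annotation and build are not given in the sources used here. RNA input was 5 ng, labelled with the WT Pico kit per the labels. No further transformation was applied.

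Of 72688 features, 31258 named exactly 1 gene, 1492 several and 39938 none. Symbols were updated for 1135, which gave 30702 genes. The brightest feature stood for each gene, and genes above 5.3 (the overall median) in 3 or more arrays were tested. Fits used limma 3.58.1 in R 4.3.3 (lmFit, eBayes, 1 mean per group, all 12 arrays), with tables from python 3.11.15, and were tested on simulated data. Alternatives were 10 settings and 12 fits without 1 array. The same-brightness background, the control-feature comparison, the promoters and motifs were added after the results were seen, and the block terms were recoded then, to sum to 0, so that stage estimates refer to the mean of the replicates. Diet arrays of 1 number within a stage deviated together (r = 0.457, 0.180 and 0.524 in proerythroblasts, 0.717, 0.782 and 0.540 in basophilic cells). Between stages not every pair deviated together. Blocked values are therefore given for the counts of members, and for part of the single genes and lists whose calls the block changes. A gene printed as not passing, with no blocked value beside it, can pass with the block. Named genes were all called members where these were 10 or fewer, otherwise the 5 largest changes each way, with Psmb6, Psmb7, Psmb8, Psmb9, Psmb10 and Psme1 always, and up to 4 genes per list by adjusted p. Other genes named, such as Psma1, Psmd2, Psmd4, Psmd14 and Psmf1 between diets, were chosen after their values were seen. The number of arrays limits precision.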

Additional observations from a re-analysis of the deposited data

Results flagged for a closer look

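For 3 members the interaction passed with the replicate number as a block within each stage, as it did for 2.93% of all genes. The 3 are given here because they passed in that fit. The interaction, basophilic minus proerythroblast, was 0.87 for Psmb10 (adjusted p = 0.0381), 0.66 for Psmb6 (adjusted p = 0.0443) and -0.67 for Psme3 (adjusted p = 0.0485), from limma. In the fit of all arrays without the block none of the 3 passed, with adjusted p of 0.281, 0.528 and 0.257. Without both basophilic arrays numbered 2, and with no block, Psmb6 (adjusted p = 0.0233) and Psme3 (adjusted p = 0.0454) passed. Psmb10 did not pass there (adjusted p = 0.152). Psmf1 passed in that fit (-0.79, adjusted p = 0.0395), and had adjusted p = 0.0503 with all arrays and the block. For the fit without the arrays numbered 2, the share of all genes that passed the interaction is not given. With all arrays, Psmb10 had a diet difference of 0.03 in basophilic cells and -0.85 in proerythroblasts. Psmb6 had 0.64 and -0.02, and Psme3 had -0.04 and 0.63.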

How the results depend on the processing

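Median differences of the members moved by less than a pooled SD of 0.420 between arrays under every alternative. That SD is mostly of basophilic arrays (0.717 deficient and 0.419 adequate, against 0.121 and 0.044 in proerythroblasts), and over the fits without 1 array the medians ran from -0.68 to -0.28 with stage on the deficient diet, from 0.00 to 0.46 between diets in basophilic cells, from -0.07 to 0.07 between diets in proerythroblasts and from -0.02 to 0.48 for the interaction. Counts of calls varied too. Between diets in proerythroblasts 2 members passed. There were 0 under quantile normalization, 12 with array weights (a fit that did not converge), 4 without both basophilic arrays numbered 2, and 0 to 2 without 1 array. With array weights 9.09% of the members and 23.3% of equally bright genes fell in that comparison. Without the arrays numbered 2 these shares were 4.55% and 10%, against 2.27% and 1.22% with all arrays and no weights. Between diets in basophilic cells 0 passed, against 1 under quantile normalization, 3 with the replicate block within stage, 4 without the arrays numbered 2, and 0 in every fit without 1 array. For the interaction 0 passed, against 1 with array weights, 3 with the replicate block within stage, 3 without the arrays numbered 2, and 0 in every fit without 1 array. For stage on the adequate diet 25 passed, 38 with the replicate block within stage and 15 to 35 without 1 array. On the deficient diet 16 passed, 28 with the replicate block, 34 with it within stage, 3 in arrays of the contrast only, and 5 to 26 without 1 array. Median centring moved the median of all genes by -0.23 on the adequate and -0.21 on the deficient diet; members minus all genes was -0.80 and -0.60, against -0.82 and -0.62 as deposited and -0.62 and -0.39 under quantile normalization. With genes of the same brightness as background, 37.3% and 41.6% fell, against 25.6% and 24.9% of all tested. The cause of these changes was not tested, and the number of arrays and the higher background of basophilic arrays limit precision.

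Single values that turned sign were all of genes that did not pass. With array weights, the diet difference was 0.0904 for Psmb8 in proerythroblasts and -0.26 for Psmb10 in basophilic cells, and the interaction was -0.31 for Psmb8, -0.14 for Psmb9 and -0.0452 for Psme1. Median centring gave -0.04 for Psmb10 between diets in basophilic cells. Without the arrays numbered 2 it was -0.07, and the Psme1 interaction was -0.0017. Quantile normalization gave Psme1 0.23 and 0.36 with stage on the adequate and deficient diet, and Psmb8 an interaction of -0.0033. Over the fits without 1 array, values that turned sign in at least 1 of them ran from -0.335 to 0.13 for Psmb8 and from -0.075 to 0.01 for Psmb6 between diets in proerythroblasts. Between diets in basophilic cells they ran from -0.2933 to 0.0517 for Psmb9 and from -0.1317 to 0.2033 for Psmb10. With stage on the deficient diet they ran from -0.2733 to 0.0717 for Psmb9 and from -0.1633 to 0.0717 for Psme1. In the interaction they ran from -0.2633 to 0.2017 for Psmb8 and from -0.1 to 0.1483 for Psme1. Of 1004 single-gene values, 898 kept direction and call.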
